A study of Mus musculus with 6 samples.

Results

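The genes described here are 9 members of the tumour necrosis factor (TNF) receptor system, read out in splenic regulatory T cells (Treg cells) of the mouse. Treg cells are CD4 lymphocytes that express Foxp3 and hold other immune cells in check. The 9 are 8 receptor genes (Tnfrsf4, Tnfrsf9, Tnfrsf18, Cd27, Tnfrsf1b, Tnfrsf1a, Tnfrsf25 and Fas) and Traf1, an adaptor that binds such receptors inside the cell. They were taken by gene symbol, with earlier results of these data known, and each was found in both deposited tables, which list 14608 genes. The study measured RNA in Treg cells of mice that carried both alleles of Cdc42 (WT), had lost 1 allele (Cdc42+/-) or had lost both (Cdc42-/-). Cdc42 encodes a small GTPase that organises the actin cytoskeleton. Each genotype gave 2 libraries, each from a different mouse, so that all comparisons below rest on 2 against 2. In every genotype the cells were splenic CD4 cells positive for the fluorescent protein YFP, collected by flow sorting after magnetic enrichment. The promoter that drives YFP, how and in which cells Cdc42 was removed, the part of the gene removed, and the age and sex of the mice are not given in the sources used here.

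TNF receptors are trimeric surface proteins that bind ligands of the TNF family and pass the signal on through adaptors. Those without a death domain recruit TRAF proteins and activate NF-kB and MAP kinases, which in Treg cells adds to the signal of the antigen receptor and supports expansion and survival. Those with a death domain can in addition assemble complexes that activate caspases. Treg cells are known for high surface levels of OX40 (Tnfrsf4), GITR (Tnfrsf18) and TNFR2 (Tnfrsf1b) in comparison with other resting CD4 T cells.

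Levels are given as RPKM, the reads of a gene scaled to its length and to the depth of the library, so that they can be compared between genes. The libraries held between 8556576 and 17796100 reads in genes, and between 262 (Fas) and 5835 (Tnfrsf1b) reads lay behind each value of the 9 genes. Markers of other cell types differed between libraries, with the highest sums in replicate 2 of Cdc42-/-. Replicate 2 of Cdc42-/- held the highest value of 12 of 12 myeloid marker genes, with a summed level of 1362 RPKM, against 46.9 RPKM in replicate 1 and 14.7 to 55.9 RPKM in WT and Cdc42+/-; Fcgr1 was at 0 in replicate 1 of WT and of Cdc42-/-. The 3 erythroid markers summed to 136 RPKM in replicate 2 and 16.6 RPKM in replicate 1 of Cdc42-/-, against 0.244 to 3.92 RPKM in WT and Cdc42+/-. The 7 B cell markers summed to 141 RPKM in replicate 2, of which the plasma cell gene Jchain made up 123 RPKM; Jchain was the 1 of the 7 that was highest there, and it had 0.946 RPKM in replicate 1 and 9.17 to 89.0 RPKM in the other genotypes. The 5 CD8 and NK cell markers summed to 9.13 to 14.5 RPKM in all 6 libraries. The 8 T and Treg cell markers were present in every library, and summed to 1748 to 1872 RPKM in WT and Cdc42+/- and to 1409 and 1141 RPKM in Cdc42-/-. Sex-linked RNA differed too: Xist reached at most 1.13 RPKM in WT, stood at 99.3 and 93.3 RPKM in Cdc42+/-, and had 87.4 RPKM in replicate 1 but 21.2 RPKM in replicate 2 of Cdc42-/-. The Y-linked Ddx3y had at least 37.7 RPKM in WT, at most 0.126 RPKM in Cdc42+/-, and 0.0974 and 27.5 RPKM in replicates 1 and 2 of Cdc42-/-. Replicate 2 of Cdc42-/- thus held Xist together with Y-linked RNA, the Y-linked Eif2s3y being at 53.1 RPKM there. Whether this library came from 1 mouse alone was not tested. Genotype and sex-linked expression therefore cannot be told apart in the comparison of Cdc42+/- with WT, nor in that of Cdc42-/- with WT when replicate 1 is the only Cdc42-/- library; with both, Xist was higher in Cdc42-/- than in WT by 4.80 on the log2 scale (adjusted p 0.00753 by limma). Cdc42 itself was at 166 and 161 RPKM (WT), 164 and 156 RPKM (Cdc42+/-) and 122 and 173 RPKM (Cdc42-/-), so that the genotypes are known from the labels alone. In such bulk samples, fewer cells of a type and less RNA per cell cannot be told apart.

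The 9 genes lie on chromosomes 2, 4, 6 and 19 of the mouse, with 5 of them on chromosome 4 (RefSeq coordinates, GRCm38.p6, the assembly known as mm10; 9 of 9 were matched by gene ID). Tnfrsf4 (gene ID 22163, chr4:156013595-156016613) and Tnfrsf18 (21936, chr4:156026322-156028894) are near neighbours on the plus strand. The other genes on that chromosome are Tnfrsf1b (21938, chr4:145212368-145246870), Tnfrsf9 (21942, chr4:150920155-150946104) and Tnfrsf25 (85030, chr4:152115528-152120119). Cd27 (21940, chr6:125232620-125237136) and Tnfrsf1a (21937, chr6:125349723-125362483) share chromosome 6, while Fas (14102) is at chr19:34290647-34327775 and Traf1 (22029) at chr2:34941750-34961812. The annotation of 4 members overlaps another gene: Tnfrsf4 with the end of Sdf4, Tnfrsf18 with Gm16008 on the other strand, Cd27 with E130112N10Rik and Mir8113, and Traf1 with Gm52552. The strand setting of the counting is not given in the sources used here, so reads of these 4 may have been shared with the overlapping gene. Of the 10 pathway genes called against WT, the same applies to Lta, Ltb, Tnfrsf13b and Ripk3; overlaps of the other pathway genes were not examined.

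The promoters of Traf1 and Cd27 are shown because these genes had the lowest Cdc42-/- levels relative to WT, and that of Tnfrsf9 because it holds a match to the NF-kB motif. Each sequence is the RefSeq window (GRCm38.p6) of 250 bases before and 50 bases after an annotated start, 300 bases in all, written 5′ to 3′ on the strand of the gene. Capitals mark matches to the NF-kB consensus motif, searched on both strands. The window of Traf1 is chr2:34961723-34962022 (minus strand), that of Cd27 is chr6:125236978-125237277 (minus strand), and that of the second annotated start of Tnfrsf9 is chr4:150927749-150928048 (plus strand).
Traf1: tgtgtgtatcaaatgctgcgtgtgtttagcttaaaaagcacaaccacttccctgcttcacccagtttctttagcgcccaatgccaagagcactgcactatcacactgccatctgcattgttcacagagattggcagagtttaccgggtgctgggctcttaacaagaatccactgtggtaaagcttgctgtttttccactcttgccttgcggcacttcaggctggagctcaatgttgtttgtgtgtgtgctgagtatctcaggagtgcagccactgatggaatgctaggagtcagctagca
Cd27: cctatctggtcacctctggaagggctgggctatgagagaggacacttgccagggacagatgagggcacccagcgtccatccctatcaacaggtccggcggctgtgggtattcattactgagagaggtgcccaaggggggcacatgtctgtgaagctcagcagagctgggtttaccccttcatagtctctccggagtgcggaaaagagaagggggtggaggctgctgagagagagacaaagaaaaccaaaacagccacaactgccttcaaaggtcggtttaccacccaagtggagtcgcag
Tnfrsf9: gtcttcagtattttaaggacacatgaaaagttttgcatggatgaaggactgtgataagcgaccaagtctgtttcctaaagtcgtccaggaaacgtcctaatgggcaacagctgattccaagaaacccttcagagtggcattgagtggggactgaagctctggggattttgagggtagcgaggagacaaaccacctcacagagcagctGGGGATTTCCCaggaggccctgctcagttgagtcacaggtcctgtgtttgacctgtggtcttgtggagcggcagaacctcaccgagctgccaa
In Tnfrsf9, GGGGATTTCC at position -43 and GGGATTTCCC at position -42, counted from the start site, are overlapping matches on the same bases. Among the 11 promoters of the 9 genes, 1 other held the motif, a window of Tnfrsf25 (chr4:152116093-152116392) with GGGGGCCTCC at positions -28 and 37. Over all mouse promoters of this length in the table, 2779 of 32851 windows (8.46%) held it. The windows of Traf1 and Cd27 held no match, which says only that these letters are not in these windows.

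In WT cells the 3 most abundant members were Cd27, Tnfrsf18 and Tnfrsf4, and they made up 62.6% and 64.3% of the summed RPKM of the 9 genes in the 2 libraries. The mean levels in WT were 203 ± 8.88 RPKM for Cd27, 175 ± 3.87 RPKM for Tnfrsf18 and 168 ± 0.244 RPKM for Tnfrsf4 (SD, n = 2 in each genotype here and below). Traf1 followed at 91.8 ± 5.03 RPKM, Tnfrsf1b at 67.2 ± 2.17 RPKM, Tnfrsf9 at 57.0 ± 2.48 RPKM and Tnfrsf25 at 55.1 ± 8.36 RPKM. The libraries of Tnfrsf9 and Tnfrsf25 overlapped, so their order was not resolved; those of the other neighbours in this order did not. The lowest were the death receptors Fas, at 25.5 ± 2.96 RPKM, and Tnfrsf1a, at 17.8 ± 1.82 RPKM.
The order was another one in Cdc42-/-. Tnfrsf4 came first at 212 ± 41.5 RPKM, before Tnfrsf18 at 149 ± 39.4 RPKM and Cd27 at 115 ± 38.6 RPKM. Tnfrsf1b at 58.9 ± 18.4 RPKM and Traf1 at 50.8 ± 10.3 RPKM overlapped, so their order was not resolved: Traf1 was the higher in replicate 1 and Tnfrsf1b in replicate 2. In each Cdc42-/- library Tnfrsf4 exceeded Tnfrsf18, which exceeded Cd27. The ratio of Cd27 to Tnfrsf4 took values of 1.18 and 1.25 (WT), 1.22 and 1.60 (Cdc42+/-) and 0.589 and 0.480 (Cdc42-/-). The ratio of Tnfrsf4 to Tnfrsf18 took values of 0.944 and 0.976 (WT), 0.873 and 0.864 (Cdc42+/-) and 1.37 and 1.51 (Cdc42-/-). Both ratios are taken within a library, and neither overlapped between Cdc42-/- and the other libraries. For Cd27 to Tnfrsf4 this follows from the levels, since Cd27 was lower and Tnfrsf4 higher in both Cdc42-/- libraries. The ratios therefore restate the levels, and the share of all gene pairs that separate in this way was not computed.

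**Figure D1:**
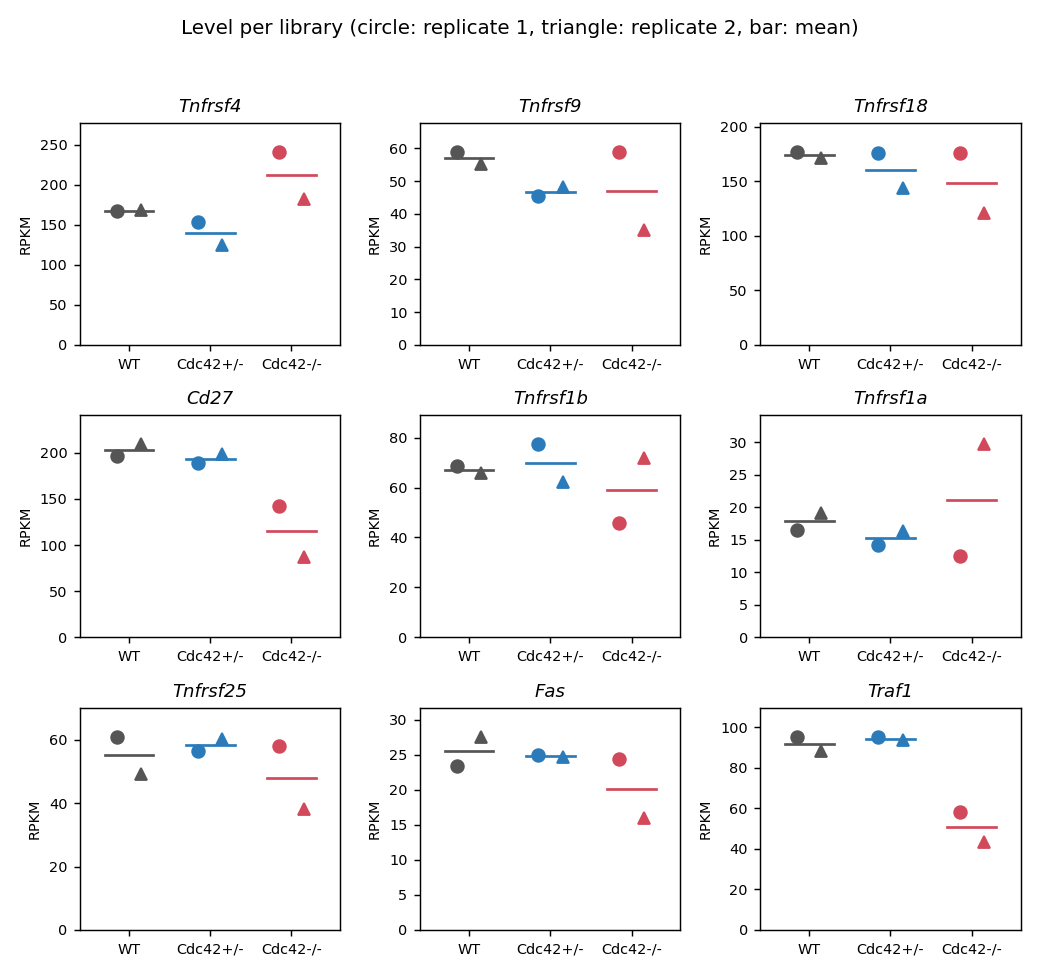
Level of each of the 9 genes in RPKM (vertical axes, from 0) in each library of WT, Cdc42+/- and Cdc42-/- (circle: replicate 1, triangle: replicate 2, bar: mean of 2). Both Cdc42-/- libraries lie below the 4 others for Cd27 and Traf1 and above them for Tnfrsf4, while those of Tnfrsf1a lie on either side, at 12.6 and 29.7 RPKM. Over all genes tested, both lie below the 4 others for 22.1% and above them for 22.1%.

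The genotypes were compared with limma on log2(RPKM + 1), a scale that understates the change of low genes, over 12233 genes with Benjamini-Hochberg adjustment, and a gene was called at an adjusted p of at most 0.05. In Cdc42+/- against WT, 0 of the 9 genes were called and 0 had an unadjusted p under 0.05; over all genes 0 were called (0%) and 529 (4.32%) had such a p. The authors' deposited table lists 333 genes (2.28%) past 0.05 in this comparison, 0 of the 9 among them. Of the 9 genes, 1 was called in Cdc42-/- against WT, Traf1, as lower; over all genes 11.4% were called, 6.86% as higher and 4.57% as lower. Traf1 was again the 1 member called, as lower, in Cdc42-/- against Cdc42+/-, where 8.22% of all genes were called, 4.68% as higher and 3.54% as lower. The share of members called was thus near that of all genes. An unadjusted p under 0.05 was found for 0, 2 and 3 members in these 3 comparisons, where it was found for 4.32%, 29.3% and 27.1% of all genes. Libraries of the compared genotypes were separate, with no overlap, for 3, 3 and 4 members, against 43.2%, 56.0% and 59.0% of all genes. The median log2 fold change of the 9 was -0.07, -0.26 and -0.27, beside medians over all genes of 0.03, 0.01 and -0.01. These comparisons share libraries, WT in the first 2, Cdc42-/- in the last 2 and Cdc42+/- in the first and the third.

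Traf1 encodes the TRAF protein that lacks a RING domain; it binds TRAF2 and the cytoplasmic tails of OX40, CD137 and TNFR2, and its own gene is a target of NF-kB. It measured 95.3 and 88.2 RPKM in WT libraries, 95.2 and 93.6 RPKM in Cdc42+/- libraries, and 58.1 and 43.5 RPKM in Cdc42-/- libraries. The 4 libraries of WT and Cdc42+/- were close together, and both Cdc42-/- libraries lay below them, as they did for 22.1% of all genes tested. Traf1 fell by 0.85 on the log2 scale in Cdc42-/- against WT (SE 0.15, adjusted p 0.0196), to 55.4% of the WT mean, and by 0.89 against Cdc42+/- (SE 0.15, adjusted p 0.0229). The difference of Cdc42+/- from WT was 0.04 (SE 0.15, adjusted p 0.999). The authors' deposited table lists Traf1 at -0.89 in Cdc42-/- against WT, with an adjusted p of 0.00775.
Traf1 was lower with either Cdc42-/- library: its log2 fold change was -1.06 without replicate 1 and -0.65 without replicate 2 against WT. Such fits take their spread from WT and Cdc42+/- alone, so their p does not measure the variation in Cdc42-/-. The call was lost in 6 of 15 alternatives. The adjusted p against WT was 0.0724 with only the libraries of WT and Cdc42-/-, 0.146 and 0.122 without WT replicate 1 or 2, and 0.0710 and 0.0701 without Cdc42+/- replicate 1 or 2; it ranged from 0.000367 to 0.571 over the 15, of which 9 kept the call in both comparisons. The upper end came from scaling each library to Cd3d, Cd3e and Cd3g, described below.

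Traf2, which encodes the partner of TRAF1, measured 25.0 and 18.5 RPKM in WT libraries, 24.6 and 25.2 RPKM in Cdc42+/- libraries, and 24.3 and 22.7 RPKM in Cdc42-/- libraries. Its log2 fold change in Cdc42-/- against WT was 0.12 (SE 0.16, adjusted p 0.658). The ratio of Traf1 to Traf2 took values of 3.81 and 4.76 (WT), 3.87 and 3.71 (Cdc42+/-) and 2.39 and 1.92 (Cdc42-/-), without overlap between Cdc42-/- and the rest. Over the 6 libraries, the genes whose log2(RPKM + 1) ran most alike to Traf1, among 8082 genes that averaged 5 RPKM or more, were Grik5 (Pearson r 0.998) and Arhgef3 (r 0.998). Grik5, which encodes a glutamate receptor subunit, measured 16.6 and 15.0 RPKM in WT libraries, 17.6 and 16.6 RPKM in Cdc42+/- libraries, and 7.85 and 5.28 RPKM in Cdc42-/- libraries. Arhgef3 was at 82.0 and 81.0, 83.2 and 82.2, and 57.7 and 45.2 RPKM. Both r are descriptions over 6 libraries that fall into a high group of 4 and a low group of 2.

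**Figure D2:**
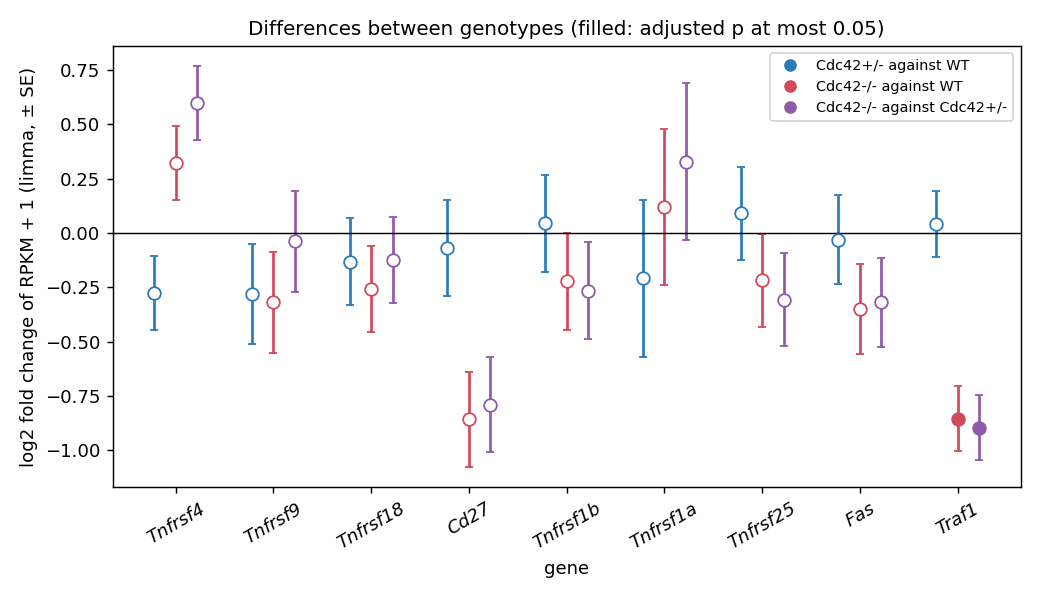
Log2 fold change of RPKM + 1 (vertical axis) of each gene in the 3 comparisons, with the standard error of limma as bars; filled points have an adjusted p of at most 0.05. The filled points are those of Traf1 in Cdc42-/- against WT (-0.85) and against Cdc42+/- (-0.89), and Cd27 lies beside them with open points at -0.86 and -0.79.

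Among the costimulatory receptors, Cd27 had both Cdc42-/- libraries below all others and Tnfrsf4 had both above. Over all genes tested, 22.1% had both below and 22.1% had both above. Cd27, the receptor of CD70 that is high on naive and central memory T cells, measured 197 and 209 RPKM in WT libraries, 188 and 199 RPKM in Cdc42+/- libraries, and 142 and 87.6 RPKM in Cdc42-/- libraries. Its Cdc42-/- level was 56.6% of the WT mean, a fraction like that of Traf1, but its 2 libraries were further apart. The log2 fold change was -0.86 against WT (SE 0.22, adjusted p 0.0582) and -0.79 against Cdc42+/- (SE 0.22, adjusted p 0.0828), short of the threshold. Of 15 alternatives, 4 called Cd27 against WT, and the adjusted p reached 0.687. Among the 4 were the fits without either Cdc42-/- library, which take their spread from WT and Cdc42+/- alone. In these the log2 fold change was -1.20 without replicate 1 and -0.51 without replicate 2. The authors' deposited table gives -0.86 with an adjusted p of 0.0234 and so lists Cd27 past 0.05, as it does 1265 genes (8.66%); of the 9 genes only Traf1 and Cd27 are past it there, and the next is Tnfrsf4 at 0.628.

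Tnfrsf4 encodes OX40, which is bound by OX40L on antigen-presenting cells and sustains activated T cells. It measured 167 and 168 RPKM in WT libraries, 154 and 124 RPKM in Cdc42+/- libraries, and 241 and 183 RPKM in Cdc42-/- libraries. This was the 1 member for which both Cdc42-/- libraries stood above all others, as they did for 22.1% of all genes tested. Both Cdc42+/- libraries were below WT, and the share of all genes with both features was not computed. The log2 fold change was 0.32 against WT (SE 0.17, adjusted p 0.260), 0.60 against Cdc42+/- (SE 0.17, adjusted p 0.0867) and -0.27 in Cdc42+/- against WT (SE 0.17, adjusted p 0.999). With replicate 1 as the only Cdc42-/- library the first value was 0.52, and with replicate 2 it was 0.12.

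Tnfrsf18 encodes GITR, a costimulatory receptor that is a classical surface marker of Treg cells. It measured 177 and 172 RPKM in WT libraries, 176 and 144 RPKM in Cdc42+/- libraries, and 177 and 121 RPKM in Cdc42-/- libraries, so that 1 Cdc42-/- library was at the WT level and the other was the lowest of 6. Tnfrsf9 encodes CD137, which appears on T cells after activation and on activated Treg cells. It measured 58.8 and 55.3 RPKM in WT libraries, 45.4 and 48.1 RPKM in Cdc42+/- libraries, and 59.0 and 35.0 RPKM in Cdc42-/- libraries, which spanned the range of all libraries. Against WT, the log2 fold changes in Cdc42-/- were -0.26 (SE 0.20, adjusted p 0.428) for Tnfrsf18 and -0.32 (SE 0.23, adjusted p 0.397) for Tnfrsf9. Both were within the spread between the Cdc42-/- libraries. In Cdc42+/- against WT, Tnfrsf9 did not overlap between the genotypes and had a difference of -0.28 (SE 0.23, adjusted p 0.999), and the authors' deposited table gives it the smallest adjusted p of the 9 there, 0.0690.

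The receptors of TNF itself separated the Cdc42-/- libraries. Tnfrsf1b encodes TNFR2, which lacks a death domain, binds TRAF2 and supports the expansion of Treg cells. It measured 68.7 and 65.6 RPKM in WT libraries, 77.4 and 62.0 RPKM in Cdc42+/- libraries, and 45.9 and 71.9 RPKM in Cdc42-/- libraries. Tnfrsf1a encodes TNFR1, the broadly expressed receptor with a death domain. It measured 16.6 and 19.1 RPKM in WT libraries, 14.3 and 16.3 RPKM in Cdc42+/- libraries, and 12.6 and 29.7 RPKM in Cdc42-/- libraries, the lowest and the highest value of the 6. Both genes were lowest in replicate 1 of Cdc42-/-, while in replicate 2 they were 1.57 and 2.36 times as high as in replicate 1. They were the 2 members that were higher in replicate 2, the library with the myeloid marker RNA; the part of that RNA in these values was not tested.
With both libraries, the log2 fold change in Cdc42-/- against WT was -0.22 (SE 0.22, adjusted p 0.545) for Tnfrsf1b and 0.12 (SE 0.36, adjusted p 0.849) for Tnfrsf1a. Without replicate 2 of Cdc42-/-, it was -0.54 for Tnfrsf1b and -0.47 for Tnfrsf1a. Without replicate 1, it was 0.10 for Tnfrsf1b and 0.71 for Tnfrsf1a, so that the sign of both differences was set by the choice of library. The ratio of Tnfrsf1b to Tnfrsf1a was between 3.43 and 5.42 in WT and Cdc42+/- and was 3.64 and 2.42 in Cdc42-/-.

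The other death domain receptors, Tnfrsf25 and Fas, were near the WT level in replicate 1 of Cdc42-/- and lowest in replicate 2. Tnfrsf25 encodes DR3, the receptor of TL1A, whose stimulation expands Treg cells. It measured 61.0 and 49.2 RPKM in WT libraries, 56.5 and 60.4 RPKM in Cdc42+/- libraries, and 58.1 and 38.0 RPKM in Cdc42-/- libraries. Fas, the receptor of Fas ligand that triggers apoptosis, measured 23.4 and 27.6 RPKM in WT libraries, 25.0 and 24.7 RPKM in Cdc42+/- libraries, and 24.4 and 15.9 RPKM in Cdc42-/- libraries. The log2 fold changes in Cdc42-/- against WT were -0.22 (SE 0.21, adjusted p 0.538) for Tnfrsf25 and -0.35 (SE 0.21, adjusted p 0.307) for Fas. Without replicate 2 they were 0.08 and -0.06, and without replicate 1 they were -0.52 and -0.64.

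Across the 9 genes, replicate 1 of Cdc42-/- lay below the range of the 4 WT and Cdc42+/- libraries for 4 genes, inside it for 3 and above it for 2, where these places held 33.2%, 34.5% and 32.3% of all genes tested. Replicate 2 lay below that range for 6 genes, inside it for 1 and above it for 2, against 36.9%, 24.3% and 38.8% of all genes. Replicate 2 was lower than replicate 1 for 7 of 9 genes, where this held for 46.0% of all genes tested. The summed level of the 9 came to 865 and 854 RPKM in WT libraries, 833 and 772 RPKM in Cdc42+/- libraries, and 818 and 625 RPKM in Cdc42-/- libraries. Over all genes, the median SD between the 2 libraries of a genotype came to 0.115 for WT, 0.084 for Cdc42+/- and 0.216 for Cdc42-/- on the log2(RPKM + 1) scale. When 1 Cdc42-/- library was left out, the remaining one was assumed to vary like the other genotypes; 7 members were then called against WT without replicate 1 and 4 without replicate 2, where 4433 and 2263 of all genes were called.

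**Figure D3:**
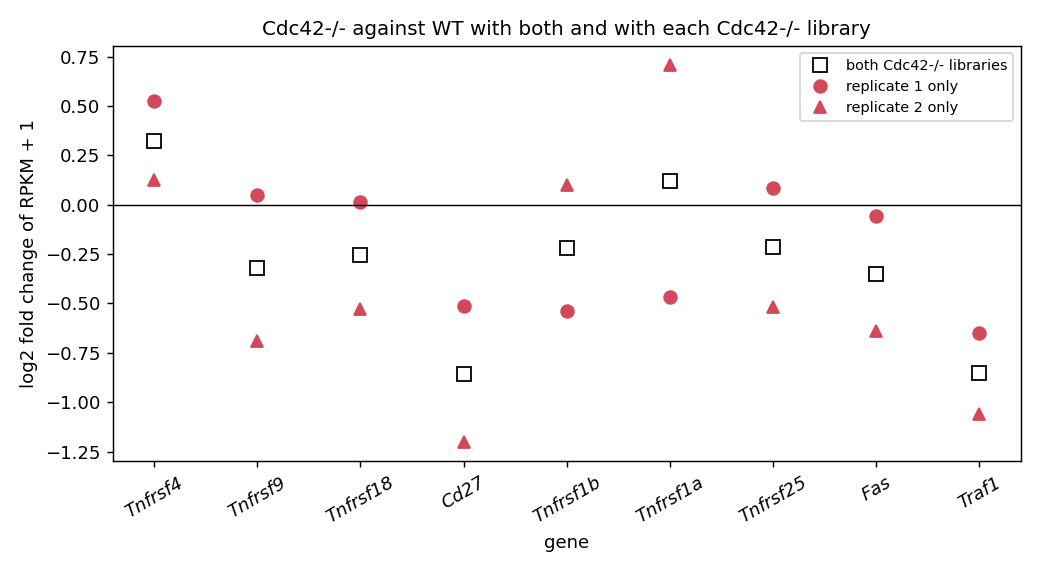
Log2 fold change of RPKM + 1 in Cdc42-/- against WT (vertical axis) for each gene with both Cdc42-/- libraries (open squares), with replicate 1 only (circles) and with replicate 2 only (triangles). Circle and triangle lie on the same side of 0 for Tnfrsf4, Cd27, Fas and Traf1 and on opposite sides for the other 5 genes.

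The genes of the CD3 chains, which T cells share, were lower in both Cdc42-/- libraries. Against WT, Cd3d fell by 0.73 (adjusted p 0.0379), Cd3e by 0.78 (adjusted p 0.0126) and Cd3g by 0.80 (adjusted p 0.00895) on the log2 scale, and Ikzf2 fell by 0.90 (adjusted p 0.0311). The other 4 of the 8 T and Treg cell markers did not pass: Cd4 was at -0.33 (adjusted p 0.189), Foxp3 at -0.58 (adjusted p 0.262), Il2ra at -0.47 (adjusted p 0.101) and Ctla4 at 0.49 (adjusted p 0.0524). For Ctla4 both Cdc42-/- libraries lay above the 4 others, which reached at most 157 RPKM. Il2ra was at -0.46 in Cdc42+/- against WT as well (adjusted p 0.926). Scaled per library to the geometric mean of Cd3d, Cd3e and Cd3g, a choice made after seeing the data, the median over all genes in Cdc42-/- against WT moved from 0.01 to 0.70. On that scale Traf1 was at -0.09 (adjusted p 0.571) and Cd27 at -0.09 (adjusted p 0.687), and Tnfrsf9, Tnfrsf18, Tnfrsf1b, Tnfrsf25 and Fas were above 0, between 0.39 (Fas) and 0.54, which is below the median of all genes on that scale. Tnfrsf4 was at 1.09 (adjusted p 0.00378) and Tnfrsf1a at 0.86. Tnfrsf4 was not the only member called on that scale, on which 53.3% of all genes were called as higher. Relative to the median of all genes on the same scale, the values were -0.79 for Traf1, -0.78 for Cd27, 0.40 for Tnfrsf4 and 0.16 for Tnfrsf1a, the 2 members above that median being Tnfrsf4 and Tnfrsf1a.

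The remaining genes of the pathway were taken from 4 lists: other receptors, ligands, adaptors and the NF-kB pathway. The ligands had the lowest median of the 4. Of 18 ligand genes listed, 14 were in the tables and 11 were tested. Against WT, 6 of the 11 fell in Cdc42-/- and 0 rose, where 4.57% of all genes were called as lower, with a median log2 fold change of -0.79 beside 0.01 over all genes; against Cdc42+/-, 4 fell and 0 rose, where 3.54% of all genes were called as lower, with a median of -0.83. In Cdc42+/- against WT, 0 were called, 1 had an unadjusted p under 0.05, and the median was -0.02.
Lymphotoxin alpha (Lta), which as a homotrimer binds TNFR1 and TNFR2, measured 76.0 and 65.4 RPKM in WT libraries, 52.2 and 52.6 RPKM in Cdc42+/- libraries, and 34.5 and 28.0 RPKM in Cdc42-/- libraries. The 3 genotypes did not overlap. Lta fell by 1.16 in Cdc42-/- against WT (SE 0.14, adjusted p 0.00576) and by 0.74 against Cdc42+/- (SE 0.14, adjusted p 0.0306), while Cdc42+/- differed from WT by -0.42 (adjusted p 0.925; 0.00417 in the authors' deposited table). Tnf, the ligand of both TNF receptors, measured 22.9 and 19.4 RPKM in WT libraries, 16.7 and 19.8 RPKM in Cdc42+/- libraries, and 11.2 and 7.35 RPKM in Cdc42-/- libraries, and fell by 1.13 against WT (SE 0.21, adjusted p 0.0248). Ltb, which forms the membrane lymphotoxin with Lta, was the most abundant ligand gene, with 562 and 569 RPKM in WT libraries, 496 and 527 RPKM in Cdc42+/- libraries, and 366 and 220.0 RPKM in Cdc42-/- libraries. It fell by 0.99 against WT (SE 0.23, adjusted p 0.0470).

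The other 3 ligands that fell, like the membrane lymphotoxin, bind receptors outside the 9. Tnfsf11 (RANKL) measured 24.1 and 25.8 RPKM in WT libraries, 21.1 and 20.3 RPKM in Cdc42+/- libraries, and 5.91 and 12.7 RPKM in Cdc42-/- libraries, and fell by 1.42 against WT (SE 0.30, adjusted p 0.0362). Tnfsf8 (CD30 ligand) was at 42.2 and 33.8, 34.7 and 37.5, and 21.8 and 23.8 RPKM in the same order, and fell by 0.70 (SE 0.14, adjusted p 0.0297). Tnfsf10 (TRAIL) was at 22.4 and 18.5, 23.9 and 20.2, and 13.3 and 10.7 RPKM, and fell by 0.73 (SE 0.17, adjusted p 0.0459). For each of these 6 ligands, which were chosen by their call, both Cdc42-/- libraries lay below the 4 others, as they did for 22.1% of all genes; of all 11 tested ligands, 8 did not overlap between Cdc42-/- and WT, where 56.0% of all genes did not. With scaling to the Cd3 genes 0 of them were called against WT; Tnfsf8 was at 0.05 and the others between -0.70 (Tnfsf11) and 0.00 (Tnfsf10), on the scale whose median over all genes was 0.70. The count of 6 became 1 with only the libraries of WT and Cdc42-/-, 0 and 1 without WT replicate 1 or 2, and 1 and 1 without Cdc42+/- replicate 1 or 2. Of 15 alternatives, 13 kept the call of Lta, 9 those of Tnf and Tnfsf11, 7 those of Ltb and Tnfsf8, and 6 that of Tnfsf10. Against Cdc42+/-, 9 kept the call of Lta, and the count of 4 ligands became 0 with only the libraries of Cdc42-/- and Cdc42+/-. That count also fell without any 1 of the WT or Cdc42+/- libraries, and it rose without either Cdc42-/- library.

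**Figure D4:**
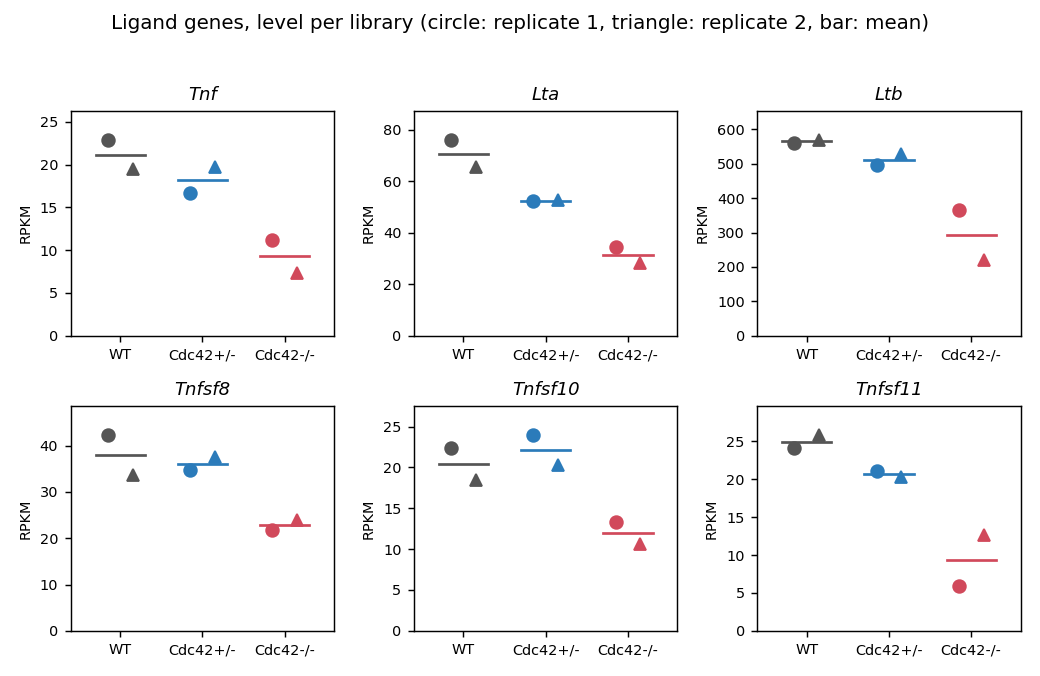
Level in RPKM (vertical axes, from 0) of the 6 ligand genes called as lower in Cdc42-/- against WT, in each library of the 3 genotypes (circle: replicate 1, triangle: replicate 2, bar: mean of 2). For each gene both Cdc42-/- libraries lie below the 4 others, and for Tnfsf11 and Tnfsf8 replicate 2 is the higher of them.

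Ligands of 3 of the costimulatory members, OX40, CD27 and CD137, were low in these cells; that of GITR (Tnfsf18) was not analysed here. Tnfsf4, which encodes OX40L, reached at most 0.748 RPKM and Cd70 at most 0.600 RPKM in any library, and both were below the filter of 0.5 RPKM on the mean. Tnfsf9, the ligand of CD137, was tested and measured 2.30 and 5.32 RPKM in WT libraries, 3.39 and 3.61 RPKM in Cdc42+/- libraries, and 4.19 and 3.65 RPKM in Cdc42-/- libraries (0.11 in Cdc42-/- against WT, SE 0.32, adjusted p 0.850). Fasl, the ligand of Fas, measured 2.99 and 2.30 RPKM in WT libraries, 3.30 and 3.54 RPKM in Cdc42+/- libraries, and 1.17 and 1.02 RPKM in Cdc42-/- libraries. It is named after its values were seen: it was the fourth ligand called against Cdc42+/-, where it fell by 1.08 (adjusted p 0.0356), and against WT it was at -0.79 (adjusted p 0.0662). Its mean RPKM in Cdc42-/-, with no pseudocount added, was 32.0% of that in Cdc42+/- and 41.4% of that in WT.

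Of 20 other TNF receptor genes listed, 18 were in the tables and 13 were tested. Against WT, 2 of the 13 fell in Cdc42-/- and 0 rose, where 4.57% of all genes were called as lower, with a median of -0.13. The count of those that fell was 0 in 10 of 15 alternatives. Without replicate 1 of Cdc42-/-, a fit that called more of all genes, more of the 13 were called in both directions. Tnfrsf13b, which encodes TACI, measured 12.5 and 15.3 RPKM in WT libraries, 12.1 and 14.6 RPKM in Cdc42+/- libraries, and 8.20 and 7.88 RPKM in Cdc42-/- libraries, and fell by 0.71 (SE 0.16, adjusted p 0.0425). Tnfrsf26 was at 15.2 and 15.9, 18.2 and 19.7, and 11.1 and 10.1 RPKM, and fell by 0.52 against WT (SE 0.12, adjusted p 0.0493) and by 0.78 against Cdc42+/- (SE 0.12, adjusted p 0.0190). Over 15 alternatives these calls against WT were kept in 5 and 4, and that of Tnfrsf26 against Cdc42+/- in 9. Ltbr and Cd40, receptors that are known from myeloid, stromal and B cells, were at 7.17 and 2.33 RPKM in replicate 2 of Cdc42-/- and at most at 0.391 and 0.545 RPKM in the 5 other libraries, the same library that held the myeloid marker RNA.

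Adaptor and NF-kB pathway genes lay on both sides of 0. Of 16 adaptor genes tested in Cdc42-/- against WT, 1 rose and 0 fell, with a median of 0.03, and of 24 NF-kB pathway genes 1 rose and 0 fell, with a median of -0.01; over all genes 6.86% were called as higher. The counts were the same against Cdc42+/-, where 4.68% of all genes were called as higher. Ripk3, the kinase of necroptosis, measured 20.4 and 22.1 RPKM in WT libraries, 23.7 and 25.8 RPKM in Cdc42+/- libraries, and 37.4 and 40.2 RPKM in Cdc42-/- libraries. It rose by 0.84 against WT (SE 0.11, adjusted p 0.00854) and by 0.63 against Cdc42+/- (SE 0.11, adjusted p 0.0273). Tnfaip3, which encodes A20, the enzyme that ends NF-kB signalling downstream of TNF receptors, was at 21.8 and 19.6, 27.7 and 23.1, and 49.7 and 38.8 RPKM, and rose by 1.05 against WT (SE 0.16, adjusted p 0.0130) and by 0.77 against Cdc42+/- (SE 0.16, adjusted p 0.0415). For both genes the 3 genotypes did not overlap, the rise against WT without replicate 1 or 2 of Cdc42-/- was 0.89 and 0.79 for Ripk3 and 0.88 and 1.23 for Tnfaip3, and 13 of 15 alternatives kept the call against WT. Against Cdc42+/-, 9 (Ripk3) and 7 (Tnfaip3) of 15 kept it. Against WT each lost it without WT replicate 1 or 2, at adjusted p of 0.0867 and 0.0699 for Ripk3 and 0.0880 and 0.118 for Tnfaip3. Against WT, more genes of both lists were called when either Cdc42-/- library was left out, as were more of all genes. More genes of both lists were then called against Cdc42+/- as well. Such fits take their spread from the other genotypes alone, so their counts are no measure of these lists. With scaling to the Cd3 genes, which moved the median of all genes to 0.70, 12 of the 16 adaptors and 21 of the 24 NF-kB pathway genes were called as higher, as were 53.3% of all genes. The other 23 genes of the NF-kB list did not pass. Traf1, which the list does not hold, fell as given above. Of the 24, 12 lay above 0 and 12 below in Cdc42-/- against WT, from -0.54 to 1.05.

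**Figure D5:**
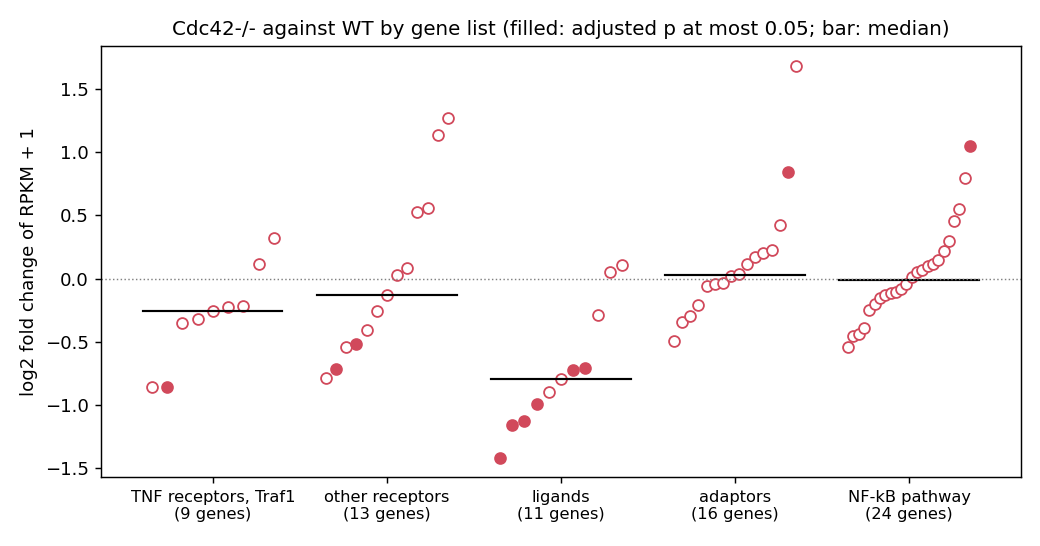
Log2 fold change of RPKM + 1 in Cdc42-/- against WT (vertical axis) of each tested gene, by list: the 9 genes described here, 13 other receptors, 11 ligands, 16 adaptors and 24 NF-kB pathway genes. Filled points have an adjusted p of at most 0.05 and bars are list medians, which were -0.26, -0.13, -0.79, 0.03 and -0.01.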

How the data were processed

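RNA-seq tables of 6 splenic Treg libraries were used. Per the submitters' processing notes, TopHat and the mm10 genome were used; the counting tool, annotation and strand setting are not given in the sources used here. The headers name no unit for the library columns. Their values fit RPKM as computed by the authors: with the group means, a signal of size-factor scaled reads averaged by the authors, 100% of values gave whole reads within 0.1 reads, and the WT reads of the 2 tables differed at 0 genes. Per the file headers, the deposited tables also hold per gene a fold change (also as log2) and p-values, raw and adjusted. Columns were matched to samples by their description, and 0 columns were of unknown sample.

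Genotypes were compared with limma 3.58.1 in R 4.3.3 (eBayes with trend) on log2(RPKM + 1), for the 12233 genes whose mean reached 0.5 RPKM, all 6 libraries in 1 fit, with Benjamini-Hochberg adjustment at 0.05. The scripts were tested on simulated data. SE is the standard error of limma. Named were all 9 genes; per pathway list at most 6 called genes by smallest p; and the 2 genes most alike to each called member. Traf2, Fasl, Tnfsf4, Tnfsf9, Cd70, Ltbr and Cd40 were named after their values were seen. The members and lists were chosen with earlier results of these data known. Symbols that the tables do not list were not analysed here. Alternatives covered the pseudocount, filter, scaling, weights, samples in the fit, voom on recovered reads, a replicate block and each library left out. Coordinates and promoters are from RefSeq, GRCm38.p6.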

Additional observations from a re-analysis of the deposited data

How the results depend on the processing

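Of 405 values of the 9 genes under alternatives, 344 kept their direction and side of the threshold, 12 lost the call, 23 gained it and 26 reversed; of 450 values of the named pathway genes, 326, 101, 12 and 11 did so. The cause was not tested, apart from the shift under Cd3 scaling. The 3 negative binomial count tests listed at the outset were not run; voom was the 1 test run on recovered reads.

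Genes called in Cdc42+/- against WT numbered 0, and 60 with only the 2 genotypes compared, 88 with array weights, 1 with voom and 0 to 76 with 1 library left out. In Cdc42-/- against WT they numbered 1398, and 536 with only the 2 genotypes, 885 with array weights, 6689 with scaling to the Cd3 genes and 259 to 4433 with 1 library left out. Against Cdc42+/- they numbered 1006, and 276, 6467 (Cd3 scaling) and 0 to 4263. Members called in Cdc42-/- against WT numbered 1, and 0 with only the 2 genotypes, 2 with array weights, 3 with Cd3 scaling, 2 with voom and 0 to 7 with 1 library left out; against Cdc42+/- they were 1, and 0, 2, 3 and 0 to 7.

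The titles share replicate numbers, but nothing says that these pair mice: replicate differences correlated at 0.018 (WT and Cdc42+/-), 0.202 (WT and Cdc42-/-) and -0.034. With the replicate block 0, 1144 and 809 genes were called, and Traf1 kept its call (adjusted p 0.0207 and 0.0270). The ligands called as lower went from 6 to 4 against WT and from 4 to 2 against Cdc42+/-. Among the named pathway genes, Tnfrsf13b, Tnfrsf26 and Tnfsf8 lost their call against WT (adjusted p 0.0535, 0.0823 and 0.0505 by limma).

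Cd3 scaling moved the median over all genes to 0.70 in Cdc42-/- against WT and to 0.68 against Cdc42+/-, and 10 of the 26 and 6 of the 11 reversals came with it, through a shift shared by all genes. Relative to that median Tnfrsf9, Tnfrsf18, Tnfrsf1b, Tnfrsf25 and Fas were below 0 against WT, at -0.26, -0.18, -0.15, -0.15 and -0.30. With Cd3 scaling, log2 fold changes in Cdc42-/- against WT reversed to 0.44 (Tnfrsf9), 0.51 (Tnfrsf18), 0.54 (Tnfrsf1b), 0.54 (Tnfrsf25), 0.39 (Fas), 0.20 (Tnfrsf26), 0.046 (Tnfsf8) and 0.00088 (Tnfsf10), and against Cdc42+/- to 0.72 (Tnfrsf9), 0.65 (Tnfrsf18), 0.50 (Tnfrsf1b), 0.46 (Tnfrsf25), 0.43 (Fas), 0.050 (Tnfrsf13b), 0.025 (Lta) and 0.12 (Tnfsf8). With 1 library left out, ranges that crossed 0 in Cdc42+/- against WT were -0.28 to 0.015 (Tnfrsf18), -0.11 to 0.20 (Tnfrsf1b), -0.061 to 0.24 (Tnfrsf25), -0.145 to 0.084 (Fas), -0.014 to 0.096 (Traf1), -0.19 to 0.084 (Tnfrsf13b), -0.22 to 0.092 (Tnfsf8) and -0.022 to 0.24 (Tnfsf10). In Cdc42-/- against WT they were -0.69 to 0.049 (Tnfrsf9), -0.53 to 0.016 (Tnfrsf18), -0.47 to 0.71 (Tnfrsf1a), -0.54 to 0.097 (Tnfrsf1b) and -0.52 to 0.083 (Tnfrsf25), and against Cdc42+/- -0.41 to 0.33 (Tnfrsf9), -0.40 to 0.15 (Tnfrsf18), -0.26 to 0.92 (Tnfrsf1a) and -0.58 to 0.053 (Tnfrsf1b).

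Libraries of a genotype differed with a mean chi-square per gene of 15.5 (WT), 6.58 (Cdc42+/-) and 48.2 (Cdc42-/-), where counting error alone gives about 1, and at least 262 reads lay behind each member's value.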
